A study of Mus musculus with 9 samples.

Results

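The genes described here are 50 protein-coding genes that act in mitosis, from the kinases and cyclins that start it to the proteins that cut the cell apart at its end. They were chosen by name as a functional group, and all 50 were found among the 52459 gene symbols of the deposited tables and passed the filter on low counts that 15370 symbols passed. RNA-seq was done on NMuMG cells, an immortalized epithelial line from normal mouse mammary gland, stably transfected with a plasmid and selected with G418 as pools of transfectants. In all, 3 groups of 3 libraries each were compared. Mock cells carried the empty vector. EPR cells carried a vector for the long non-coding RNA EPR (BC030870), which also holds a short open reading frame. EPRSTOPE cells carried EPR with a point mutation that turns the second codon of this frame into a stop, so that the RNA is made without its peptide. All 3 groups thus share the vector backbone and the drug selection, and the labels name no other allele or treatment. It is not stated whether the 3 libraries of a group came from separately made pools, so that a pool and its construct cannot be told apart and the p-values measure only the spread between these libraries.

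Mitosis runs on a wave of gene expression. CDK1 bound to cyclin B drives the cell into mitosis, the spindle assembly checkpoint holds it until every chromosome is attached, and the anaphase-promoting complex then marks securin and cyclin B for destruction so that sister chromatids part. Most genes of this wave are low early in the cell cycle and are switched on in G2. Many carry a cell cycle genes homology region (CHR) in the promoter, a short element bound by MuvB complexes, which repress these genes when joined by p130 or p107 and E2F4 (DREAM) and activate them when joined by B-MYB and FOXM1. CCAAT boxes, bound by NF-Y, often lie just upstream of it. In RNA from a whole culture, fewer cells in mitosis and less mitotic RNA per cell cannot be told apart.

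The promoters of 5 of these genes are shown because they show the motifs in different arrangements and include the members with the largest change in each comparison (Mybl2, Kif11 and Ccnb2). They were picked after the values were seen. The stretches come from the RefSeq table of promoters (GRCm38.p6), are written 5′ to 3′ on the strand of the gene, and are numbered from 1 at the first transcribed base with no position 0. Capitals mark a CHR (TTTGAA or TTCGAA, or TTCAAA where it lies on the other strand), a CCAAT box (CCAAT or ATTGG) or an E2F-type motif (GGCGGGA). For Cdk1, Ccnb2, Kif11 and Mybl2 the stretch runs from -140 to 30, and for Mki67 from -200 to -31.
Cdk1 (chr10:69352883-69353052, minus strand): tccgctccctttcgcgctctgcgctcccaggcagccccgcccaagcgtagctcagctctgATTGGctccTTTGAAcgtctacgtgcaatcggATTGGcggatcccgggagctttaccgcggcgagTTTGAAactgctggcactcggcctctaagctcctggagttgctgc
Ccnb2 (chr9:70421525-70421694, minus strand): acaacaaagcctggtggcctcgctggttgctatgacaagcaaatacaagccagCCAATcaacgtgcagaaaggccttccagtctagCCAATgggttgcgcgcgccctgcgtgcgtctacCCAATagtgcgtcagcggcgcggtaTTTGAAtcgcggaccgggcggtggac
Kif11 (chr19:37376242-37376411, plus strand): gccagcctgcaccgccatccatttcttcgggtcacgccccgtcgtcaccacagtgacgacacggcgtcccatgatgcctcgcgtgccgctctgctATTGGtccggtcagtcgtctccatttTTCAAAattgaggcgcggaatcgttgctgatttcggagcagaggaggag
Mki67 (chr7:135716410-135716579, minus strand): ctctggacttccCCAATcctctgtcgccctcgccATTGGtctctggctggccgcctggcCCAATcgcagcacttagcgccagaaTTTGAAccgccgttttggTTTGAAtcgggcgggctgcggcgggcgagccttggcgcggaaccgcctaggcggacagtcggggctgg
Mybl2 (chr2:163054495-163054664, plus strand): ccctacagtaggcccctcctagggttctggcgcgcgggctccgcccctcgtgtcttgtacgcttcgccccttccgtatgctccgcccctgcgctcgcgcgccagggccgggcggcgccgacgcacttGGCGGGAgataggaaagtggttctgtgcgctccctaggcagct

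The promoter of Cdk1 held a CHR at -15 and another at -71, with CCAAT boxes at -80 and -48 between and before them. A further CCAAT box of Cdk1 lay at -208, outside the stretch shown. Ccnb2 held 3 CCAAT boxes, at -87, -54 and -21, ahead of a CHR at 5. Another CHR of Ccnb2 lay upstream of these boxes at -167, outside the stretch shown. Kif11 had a single CCAAT box at -45 and a CHR on the other strand at -19. In Mki67, the gene of the proliferation antigen Ki-67, CHRs at -116 and -98 followed 3 CCAAT boxes. An E2F-type motif of Mki67 lay at 14, outside the stretch shown. Mybl2, which encodes the activator B-MYB itself, had no match to the letters searched for a CHR or a CCAAT box. It carried an E2F-type motif at -13. Other spellings of a CHR were not searched.

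A promoter window of 250 bases before to 50 after the start was found for 41 of the 50 genes. The windows of Smc4, Kif20a, Aurkb, Incenp, Tpx2, Cdc25c, Ccna2, Foxm1 and Lmnb1 were not used here. Both strands were searched. A CHR was present in 32 of the 41 genes (78.0%), against 21.7% of the 27025 genes in the table. CCAAT occurred in 30 (73.2%, against 41.1%) and the E2F-type motif in 9 (22.0%, against 12.7%). A CHR and a CCAAT box stood in the same gene's windows in 28 (68.3%, against 8.6%). In 29 genes a CHR lay between 40 bases before and 50 bases after the start, a range chosen after the positions were seen. The share of all genes with a CHR in that range was not counted, so this count has no background. With the 250 bases before the start alone, the share with a CHR was 39.0%, against 19.6% of all genes in the table. In a list of 41 DNA replication genes, 31 had a window, of which 19.4% held a CHR and 41.9% the E2F-type motif. Matches of different motifs overlapped in 1 case. A match is a run of letters and does not show that a factor was bound. The lack of a match does not show that a gene has no CHR, since other spellings and positions outside the windows were not searched.

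**Figure D1:**
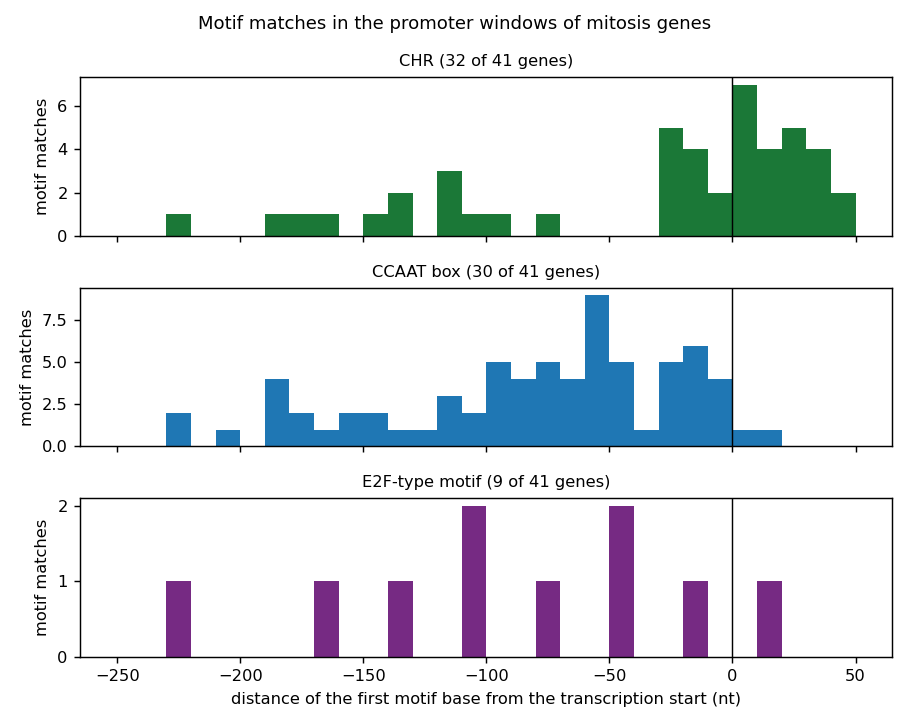
Number of motif matches (vertical axes) by the distance of the first motif base from the transcription start in nucleotides (horizontal axis, 10-nt bins) in the promoter windows of the 41 genes. CHR matches crowd around the start, with 29 of 32 genes holding one between 40 bases before and 50 after it. That range was chosen after the positions were seen and was not counted over all genes. CCAAT boxes lie mainly upstream.

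The transfected RNA followed the labels. BC030870 stood at 0 to 0.163 CPM (a gene's estimated counts scaled to library size, with the trimmed mean of M-values as the scaling factor) in the mock libraries, 23.7 to 27.0 in the EPR libraries and 3.8 to 4.74 in the EPRSTOPE libraries. EPRSTOPE cells thus held less of the transcript than EPR cells (log2 fold change of EPR over EPRSTOPE 2.56 ± 0.20, SE), and the dose of the RNA and the stop mutation cannot be told apart in the direct comparison. Library totals were 5972457 to 11876435 estimated counts, so that the 3 counts a zero allows equal 0.253 to 0.502 CPM. The lowest count of any of the 50 genes was 46 (Cdc25c in an EPRSTOPE library). The mean fragment length was longer in mock libraries, at 412 to 474 nt, than in the others. It was 181 to 283 nt in EPR libraries, within the range of 116 to 387 nt in EPRSTOPE libraries. Mitochondrial transcripts made up 1.18 to 1.39% of the counts in mock, 1.9 to 2.58% in EPR and 1.62 to 1.68% in EPRSTOPE libraries. The part of fragment length and mitochondrial share in the results was not tested. The epithelial label was checked against 10 markers, of which Epcam, Cldn3, Cldn4, Cldn7 and Esrp1 were at 0 in every mock library and Cdh1 (E-cadherin) was at 0.311 to 1.16 CPM there. No epithelial marker was at 0 in all EPR libraries, Cdh1 reached 542 to 569 CPM, and the summed epithelial level was 9492 to 10600 CPM against 3692 to 4157 CPM in mock. In EPRSTOPE libraries 4 of the 10 markers were at 0 and the sum was 10690 to 11020 CPM. The summed level of 12 mesenchymal markers was 4074 to 4253 CPM in mock, 2145 to 2371 CPM in EPR and 3967 to 4309 CPM in EPRSTOPE libraries. These sums hide markers that moved in opposite directions. Over the 7 that passed the count filter, log2 fold changes against mock ranged from -11.81 to 6.44 in EPR and from -11.81 to 6.6 in EPRSTOPE cells. Col3a1 and Pdgfra were at 0 in mock, Col3a1 and Cxcl12 in EPR and Cxcl12 in EPRSTOPE libraries. Immune markers summed to at most 3.831 CPM and endothelial markers to at most 16.44 CPM, with Adgre1 at 0 in every library.

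Both transfected populations held far less mitotic RNA than mock cells, and EPRSTOPE cells held the least. The summed level of the 50 genes was 7899 ± 124 CPM in mock (SD, n = 3), 3721 ± 36.3 CPM in EPR and 2089 ± 96.1 CPM in EPRSTOPE cells, and the libraries of the groups did not overlap. In EPR cells 48 of the 50 genes were lower than in mock and none was higher, by edgeR's quasi-likelihood test, with calls made below an adjusted p of 0.01 and past 0.5 on the log2 scale. Of all genes tested, 12.9% were called lower and 15.2% higher in that comparison. In EPRSTOPE cells all 50 were lower, where 12.4% of all genes were called lower and 15.6% higher. The median log2 fold change of the 50 was -1.08 in EPR and -2.01 in EPRSTOPE cells, against -0.01 and -0.04 over all genes tested. With a fold limit of 1 on the log2 scale, 29 genes were lower in EPR cells, and with counts scaled from TPM 44 were. The shares of all genes called at these settings are not given here. Both comparisons use the same 3 mock libraries.

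In 46 of the 50 genes every mock library lay above every EPR library and every EPR library above every EPRSTOPE library, an order that 4.31% of all genes tested followed. The exceptions were Pttg1, Smc4, Lmnb1 and Mybl2. The exact two-sided permutation test of single genes cannot go below p = 0.1 with 3 against 3 libraries, and all 50 genes gave that value in both comparisons with mock, with Pttg1 in EPR cells on the higher side. Every mock library lay above every EPR library in 49 of the 50 genes and in 28.9% of all genes tested, and above every EPRSTOPE library in 50 and in 28.3%. The spread between libraries of a group was small beside these differences, with a median coefficient of variation of 4.2% in mock, 4.5% in EPR and 10.5% in EPRSTOPE libraries. The highest coefficient was 29.8%, for Cdc25c in EPR libraries.

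**Figure D2:**
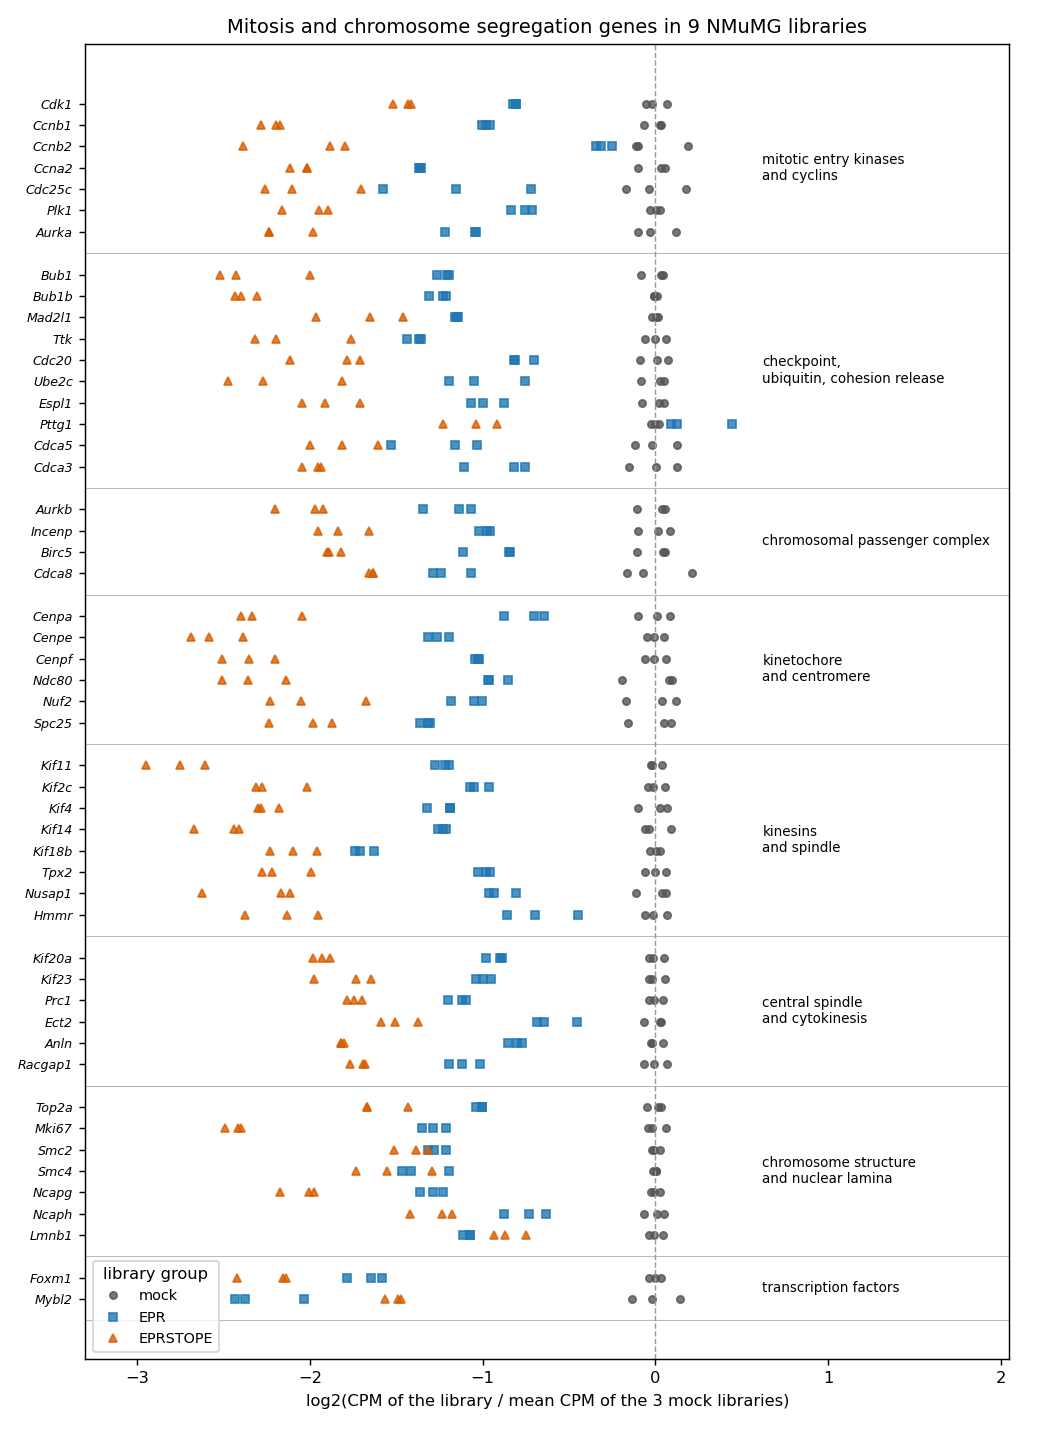
Log2 ratio of each library's CPM to the mean of the 3 mock libraries (horizontal axis) for the 50 genes by role (vertical axis), with circles for mock, squares for EPR and triangles for EPRSTOPE libraries. In 46 genes the 3 groups stand apart in the order mock, EPR, EPRSTOPE, while Pttg1, Smc4, Lmnb1 and Mybl2 do not follow it.

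Per length of transcript, in TPM (a transcript's share of all RNA molecules of a library), the most abundant of the 50 genes in mock cells were Kif23 at 278.8, Top2a at 274.8, Cdk1 at 239.4, Smc4 at 233.5 and Prc1 at 221.3. The least abundant included Espl1 at 9.3 and Kif14 at 10.1 TPM. The 50 genes summed to 3547 to 3919 TPM in mock, 1386 to 1526 TPM in EPR and 781 to 975 TPM in EPRSTOPE libraries. The EPR sum was 39.3% of the mock sum in TPM and 47.1% in CPM. Annotated transcripts under 800 nt carried 42.4% of the TPM of these genes but 8.3% of their estimated counts in mock libraries. The TPM share was 31.1% in EPR and 33.9% in EPRSTOPE libraries, and the count share 6.1% and 7.2%. The length of 800 nt was chosen after the values were seen. These shares limit the order of genes by TPM and the comparison of TPM sums between groups.

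Among the kinases and cyclins of mitotic entry, 6 of 7 were lower in EPR cells and all 7 in EPRSTOPE cells, with median log2 fold changes of -0.98 and -2.02. Cdk1, the kinase that drives entry into mitosis, stood at 175, 190 and 179 CPM in mock, 104, 103 and 104 CPM in EPR and 67.3, 68.1 and 63.3 CPM in EPRSTOPE libraries. The groups did not overlap. The log2 fold change of Cdk1 was -0.81 ± 0.06 in EPR (SE, adjusted p = 2.4e-07) and -1.46 ± 0.06 in EPRSTOPE cells (adjusted p = 1.7e-09). Its partner Ccnb1 (cyclin B1) stood at 178, 177 and 166 CPM in mock, 88.1, 89.7 and 86.8 CPM in EPR and 38.6, 37.9 and 35.8 CPM in EPRSTOPE libraries. Its EPRSTOPE mean was 21.5% of mock and its EPR mean 50.7%. Ccnb2 (cyclin B2) took another course. It stood at 45.0, 55.5 and 45.4 CPM in mock, 41.0, 38.4 and 39.1 CPM in EPR and 9.3, 13.2 and 14 CPM in EPRSTOPE libraries. EPR libraries lay close under the mock libraries, with a log2 fold change of -0.30 (95% confidence interval -0.57 to -0.03, adjusted p = 0.062), whereas the EPRSTOPE value was -1.98 ± 0.14. Ccna2 (cyclin A2) fell more in EPR cells than the B cyclins by value, to 38.9% of mock, and to 24.2% in EPRSTOPE cells. Plk1 and Aurka, kinases of centrosome maturation and spindle assembly, stood at 58.7% and 46.8% of mock in EPR and 25% and 22.6% in EPRSTOPE cells. Cdc25c, the phosphatase that activates CDK1, was at 46.4% and 24.9% of mock.

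Of the 10 genes of the checkpoint, the ubiquitin machinery and cohesion release, 9 were lower in EPR and all 10 in EPRSTOPE cells (medians -1.07 and -1.92). Bub1, Bub1b, Mad2l1 and Ttk carry the spindle checkpoint signal. Ttk, its upstream kinase MPS1, stood at 61.2, 66.4 and 63.6 CPM in mock, 24.7, 24.9 and 23.5 CPM in EPR and 18.8, 12.8 and 13.9 CPM in EPRSTOPE libraries. Its log2 fold change of -1.39 ± 0.11 in EPR cells was among the largest of the 50. Bub1b (BUBR1) was at 42.1% of mock in EPR and 19.2% in EPRSTOPE cells. Cdc20 and Ube2c, the activator and the ubiquitin-conjugating enzyme of the anaphase-promoting complex, were at 58.3% and 50.4% of mock in EPR and 27.6% and 22.4% in EPRSTOPE cells. Pttg1 (chr11:43420250-43426251, minus strand), which encodes securin, the inhibitor of separase, was the exception. It stood at 18.5, 18.8 and 18.2 CPM in mock, 25.2, 20.2 and 19.7 CPM in EPR and 9.0, 9.8 and 7.9 CPM in EPRSTOPE libraries. All EPR libraries lay above the mock libraries, with a log2 fold change of 0.24 that did not pass the test (95% confidence interval -0.03 to 0.51, adjusted p = 0.14), and EPRSTOPE libraries lay below mock (-1.05 ± 0.13, adjusted p = 4.2e-05). Espl1, the gene of separase itself, was at 50.8% and 27.1% of mock.

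The 4 subunits of the chromosomal passenger complex, which corrects faulty attachments and guides cytokinesis, fell together. Aurkb, Incenp, Birc5 (survivin) and Cdca8 (borealin) had log2 fold changes between -1.20 and -0.93 in EPR and between -2.02 and -1.65 in EPRSTOPE cells. All 6 genes of the kinetochore and centromere were lower in both populations, and their median of -2.29 in EPRSTOPE cells was the lowest of the 8 role groups. Cenpe, the kinetochore kinesin that carries chromosomes to the spindle equator, stood at 268, 257 and 250 CPM in mock, 104, 113 and 108 CPM in EPR and 49.3, 43.1 and 40 CPM in EPRSTOPE libraries. Its EPRSTOPE level was 17.1% of mock. Cenpa, the histone variant of centromeres, was at 60.0% of mock in EPR and 21.0% in EPRSTOPE cells. Ndc80, Nuf2 and Spc25, subunits of one microtubule-binding complex, were at 52.6%, 47.4% and 39.8% of mock in EPR and 19.9%, 25.6% and 24.7% in EPRSTOPE cells.

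The 8 kinesins and spindle proteins were all lower in both populations (medians -1.13 and -2.22). Kif11 (Eg5), the motor that pushes the spindle poles apart, stood at 250, 260 and 249 CPM in mock, 105, 111 and 109 CPM in EPR and 41.5, 37.5 and 32.7 CPM in EPRSTOPE libraries. With a log2 fold change of -2.77 ± 0.08 in EPRSTOPE cells it had the largest fall of the 50 genes there, and it was at 14.7% of mock. Kif11 lies on chromosome 19, as do Cdca5 and Incenp, and the median of all 471 genes tested on that chromosome was -0.02 in EPR and -0.55 in EPRSTOPE cells against mock and 0.54 for EPR over EPRSTOPE. The 47 members on other chromosomes had medians of -1.08, -2.02 and 0.94 in these comparisons, a split made after the data were seen. Kif14, a kinesin of cytokinesis, was at 17.7% of mock in EPRSTOPE cells. Kif18b, which controls the length of astral microtubules, stood at 68.2, 66.7 and 69.5 CPM in mock, 22.0, 20.8 and 20.4 CPM in EPR and 15.9, 14.5 and 17.5 CPM in EPRSTOPE libraries. Most of its fall was present in EPR cells (-1.69 ± 0.08). Hmmr, a spindle assembly factor, fell less there, at 63.4% of mock, and was at 22.7% in EPRSTOPE cells. The 6 genes of the central spindle and cytokinesis were all lower as well, from -1.14 (Prc1) to -0.59 (Ect2) in EPR and from -1.93 (Kif20a) to -1.49 (Ect2) in EPRSTOPE cells. Espl1 and the cytokinesis gene Racgap1 lie on chromosome 15, whose 522 genes had a median of 0.49 in EPR and 0.52 in EPRSTOPE cells, and both genes were nonetheless lower.

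The 7 genes of chromosome structure and the nuclear lamina were lower in both populations. Mki67, whose protein coats mitotic chromosomes, stood at 1091, 1014 and 1029 CPM in mock, 450.5, 428 and 410.3 CPM in EPR and 198, 186 and 196 CPM in EPRSTOPE libraries. It was at 41.1% of mock in EPR and 18.5% in EPRSTOPE cells. Top2a, the topoisomerase that untangles sister chromatids, was at 49.5% and 33.3%. The condensin core subunits Smc2 and Smc4 were at 41.5% and 39.2% of mock in EPR and 37.8% and 35% in EPRSTOPE cells, and Ncapg, a non-core subunit of condensin I, at 40.9% and 24.1%. Lmnb1 (lamin B1), a filament protein that lines the nuclear envelope, had the smallest fall in EPRSTOPE cells. It stood at 119, 115 and 113 CPM in mock, 54.8, 53.4 and 55.0 CPM in EPR and 68.8, 63.2 and 60.4 CPM in EPRSTOPE libraries. EPRSTOPE libraries lay between those of mock and EPR cells, at 55.5% of mock, and EPR libraries at 47.1%.

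The 2 transcription factors parted. Foxm1, an activator of G2 and mitotic genes, stood at 117, 115 and 120.1 CPM in mock, 39.1, 37.5 and 34.0 CPM in EPR and 21.9, 26.3 and 26.6 CPM in EPRSTOPE libraries. Mybl2 (chr2:163054687-163084688, plus strand) stood at 92.1, 112 and 99.6 CPM in mock, 24.7, 18.7 and 19.5 CPM in EPR and 34.2, 36.0 and 36.5 CPM in EPRSTOPE libraries. Every EPRSTOPE library of Mybl2 lay above every EPR library, the reverse of Foxm1. In EPR cells Mybl2 had the largest fall of the 50 genes, a log2 fold change of -2.26 ± 0.11 (adjusted p = 8.8e-09).

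Set directly against each other, EPR cells held more mitotic RNA than EPRSTOPE cells. In this comparison 43 of the 50 genes were higher in EPR cells, where 6.86% of all genes tested were called higher, and Mybl2 alone was lower, where 6.35% were called lower. The median log2 fold change of EPR over EPRSTOPE was 0.94, against 0.01 over all genes tested. Cdca5, Cdca8, Kif18b, Smc2, Smc4 and Lmnb1 did not pass. With counts scaled from TPM in place of the estimated counts, 26 genes were called higher and Mybl2 was not called, while the median log2 fold change was 0.89 and that of Mybl2 -0.96. The share of all genes called at that setting is not given here. Every EPR library lay above every EPRSTOPE library in 47 genes, as in 20.8% of all genes tested.

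The largest differences were those of Ccnb2 (1.67 ± 0.14, SE, adjusted p = 3e-06), Kif11 (1.54 ± 0.08, adjusted p = 6.9e-08), Cenpa (1.53 ± 0.11, adjusted p = 1.1e-06) and Hmmr (1.49 ± 0.12, adjusted p = 2.2e-06). Pttg1 was higher by 1.29 ± 0.13. Both genes that did not pass between EPR and mock cells, Ccnb2 and Pttg1, thus differed between EPR and EPRSTOPE cells. By role, all 7 entry genes (median 1.05), 9 of 10 checkpoint and cohesion genes (1.08), 3 of 4 passenger subunits (0.83), all 6 kinetochore genes (1.31), 7 of 8 spindle genes (1.22) and all 6 cytokinesis genes (0.84) were higher in EPR cells. Of the 7 chromosome structure and lamina genes only Top2a, Mki67, Ncapg and Ncaph were (median 0.53). Smc2 and Smc4, which condensin I and condensin II share, differed by 0.13 (95% confidence interval -0.003 to 0.27, adjusted p = 0.13) and 0.17 (-0.06 to 0.39, adjusted p = 0.25). A p that misses the threshold does not show that these genes were alike in the 2 populations.

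Near the limit of the test, Cdca5 (sororin) differed by 0.56 (adjusted p = 0.017), Cdca8 by 0.45 (adjusted p = 0.0095) and Kif18b by 0.40 (adjusted p = 0.0056), the last 2 short of the fold limit. Foxm1 was higher in EPR cells by 0.56 ± 0.09 (adjusted p = 0.00043). Mybl2 was lower by 0.76 on the log2 scale in EPR cells (95% confidence interval -0.9997 to -0.51, adjusted p = 0.0003). Lmnb1 lay the same way at -0.23 (-0.37 to -0.10, adjusted p = 0.015) without passing. Some calls near the limit changed with the libraries or the method used. Cdc25c (0.93 with all libraries) was not called without any one of the mock libraries 204 and 205, the EPR libraries 206 (0.69) and 208 or the EPRSTOPE libraries 210 and 211. Nor was Cdc25c called with limma-voom (0.95), with only the 2 groups compared (0.94) or with counts scaled from TPM (0.89). Ncaph was not called without EPR library 206 (0.48) or EPRSTOPE library 211 (0.46), Mad2l1 without EPRSTOPE library 211 (0.41) and Foxm1 without EPRSTOPE library 209 (0.49). Cdca5 passed without EPR library 208 (0.71).

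**Figure D3:**
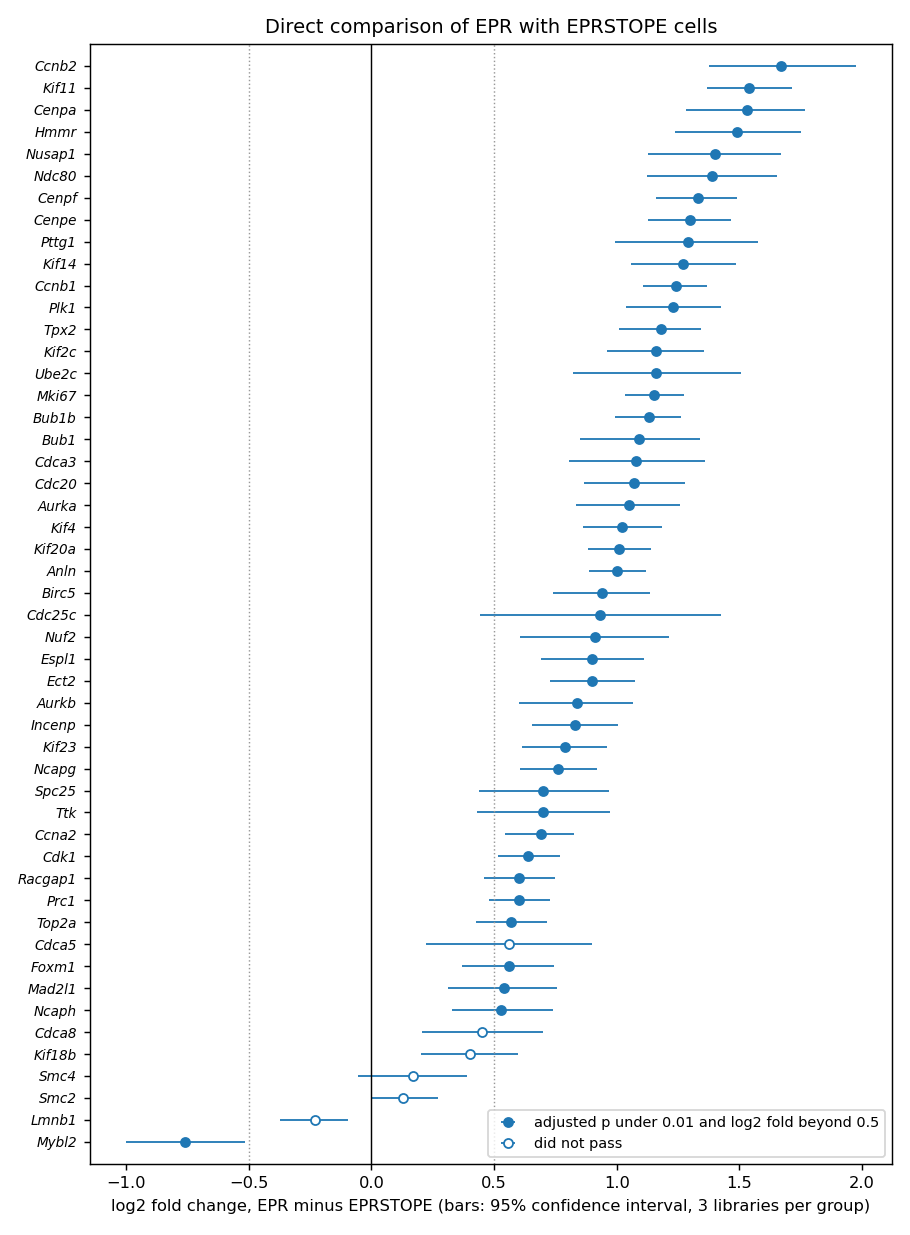
Log2 fold change of EPR over EPRSTOPE cells (horizontal axis) with 95% confidence intervals for the 50 genes (vertical axis), 3 libraries a group. Filled circles passed the test, and dotted lines mark 0.5 in either direction; 43 genes lie to the right and Mybl2 alone passes on the left.

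A longer list of 112 other mitotic genes (108 found and tested) was less uniform. In EPR cells 70 were lower and 2 higher than in mock (median -0.84), and in EPRSTOPE cells 71 were lower and 1 higher (median -0.91). The shares over all genes tested were 12.9% lower and 15.2% higher in EPR cells, and 12.4% and 15.6% in EPRSTOPE cells. The shares of the list called higher were thus under the background. Psrc1, a microtubule-associated protein, rose from 8.55 to 13.5 CPM in mock libraries to 34.5 to 36.4 CPM in EPR and 26.5 to 32.7 CPM in EPRSTOPE libraries, with log2 fold changes of 1.66 ± 0.15 and 1.42 ± 0.15. Gtse1, another microtubule-binding protein, rose in EPR cells alone by the test (0.77 ± 0.09), and it was higher in EPR than in EPRSTOPE cells by 0.63 ± 0.09. Gtse1 lies on chromosome 15, whose genes had medians of 0.49 in EPR and 0.52 in EPRSTOPE cells against mock and of -0.02 for EPR over EPRSTOPE. Both are known as p53-responsive genes. The kinetochore genes Ska1 (-2.95 ± 0.24) and Cenpu (-1.78 ± 0.23) fell furthest in EPR cells by the fixed rule, and Cep55 (-2.74 ± 0.13) and Shcbp1 (-2.44 ± 0.14), both of cytokinesis, in EPRSTOPE cells. Ska1 and Cenpu were low, at 16.2 ± 2.33 and 14.6 ± 2.93 CPM in mock cells (SD). In EPR cells they were at 2.12 ± 0.626 and 4.21 ± 1.28 CPM, so that their falls rest on few counts. Between EPR and EPRSTOPE cells 23 of the 108 were higher and 4 lower, with a median of 0.13. Over all genes tested 6.86% were called higher and 6.35% lower, the latter a larger share than the 4 lower genes make up. Kif20b (1.41 ± 0.07) and Iqgap3 (1.26 ± 0.11) were among the higher. Kif20b and Cep55 lie on chromosome 19, whose genes had medians of -0.55 in EPRSTOPE cells against mock and of 0.54 for EPR over EPRSTOPE. The CDK1-inhibiting kinase Wee1 (-0.93 ± 0.12) and the condensin II subunit Ncapg2 (-0.86 ± 0.09) were among the lower.

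The 41 DNA replication genes separated the 2 populations the other way. Their summed level was 4234 ± 88.6 CPM in mock, 2143 ± 28.9 CPM in EPR and 3382 ± 96.2 CPM in EPRSTOPE cells (SD, n = 3). In EPR cells 37 were lower than in mock and none was higher (median -0.96), where 12.9% of all genes tested were called lower. In EPRSTOPE cells 16 were lower (median -0.39) and 4 higher, namely Cdc6, Cdt1, Ccne1 and Ccne2, which license origins or drive entry into S phase and are named after their values were seen. Of all genes tested, 12.4% were called lower in EPRSTOPE cells. There 15.6% were called higher, a larger share than that of the replication genes called higher. Ccne1 was at 13.6 ± 2.65 CPM in mock, 13.4 ± 1.81 CPM in EPR and 38.1 ± 3.95 CPM in EPRSTOPE cells. Set directly, 27 replication genes were lower in EPR than in EPRSTOPE cells and none was higher (median -0.65), where 43 mitosis genes were higher. The shares over all genes tested were 6.35% lower and 6.86% higher. The sum of the 50 mitosis genes over that of the replication genes was 1.83 to 1.92 in mock, 1.73 to 1.75 in EPR and 0.60 to 0.63 in EPRSTOPE libraries.

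**Figure D4:**
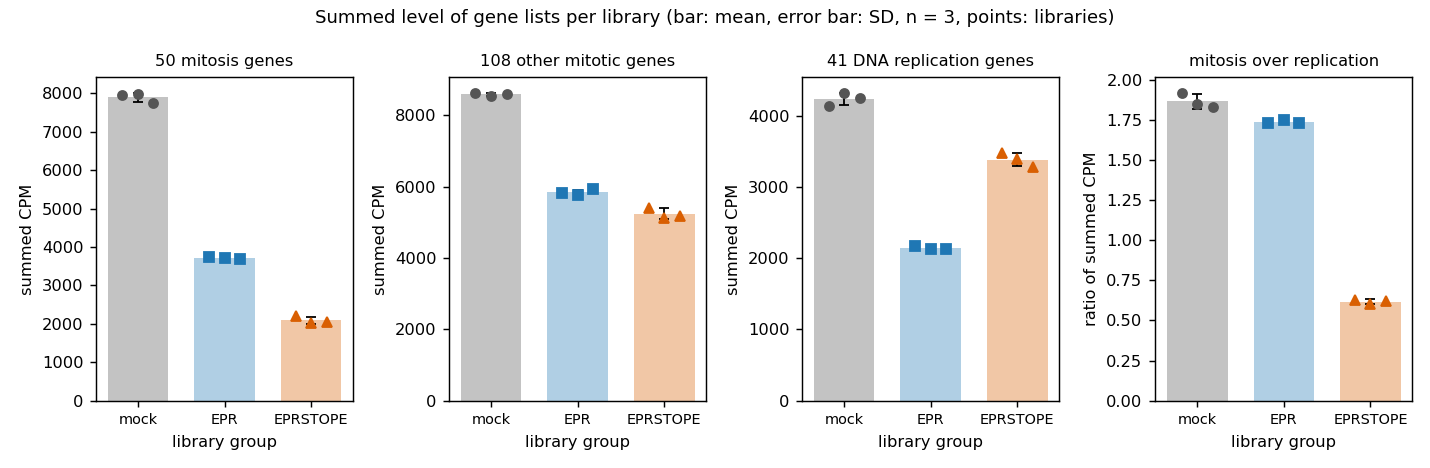
Summed CPM of the 50 mitosis genes, 108 other mitotic genes and 41 replication genes, and the ratio of the first sum to the third (vertical axes), by library group (horizontal axes), with bars for means, error bars for the SD (n = 3) and points for libraries. EPR libraries keep a ratio of 1.73 to 1.75 near that of mock, and EPRSTOPE libraries stand at 0.60 to 0.63.

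**Figure D5:**
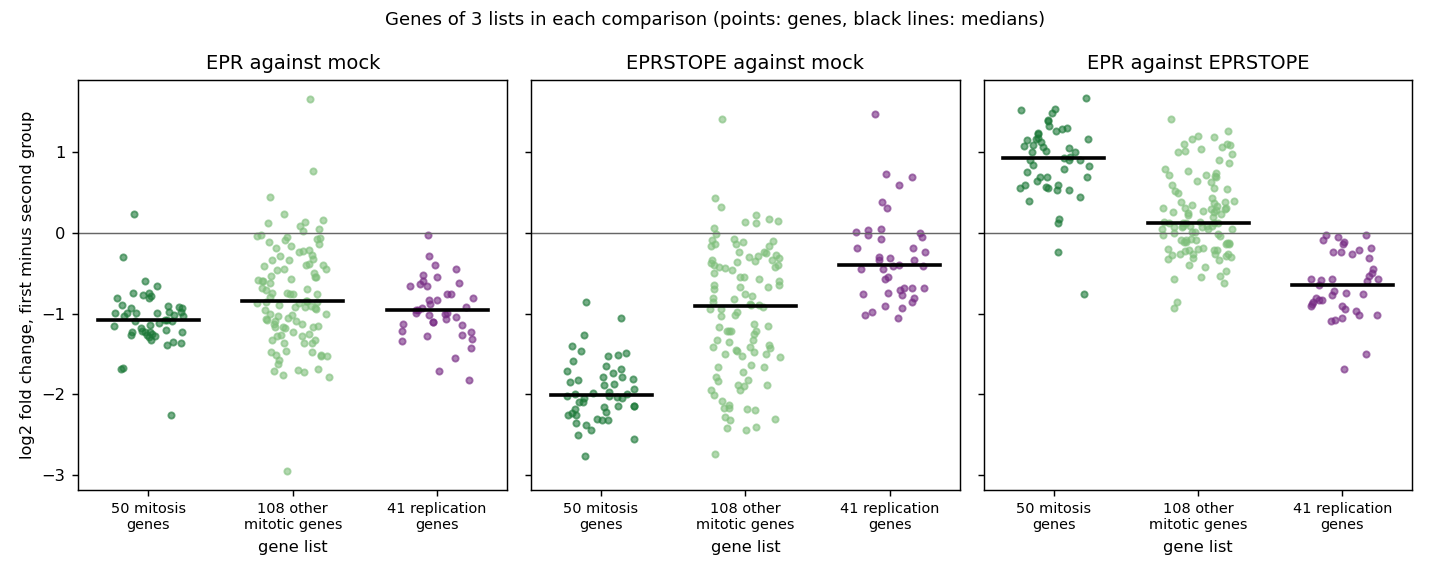
Log2 fold change (vertical axis) of each gene of the 3 lists (horizontal axes) in the 3 comparisons, with black lines for medians. In the direct comparison the mitosis genes have a median of 0.94 and the replication genes of -0.65.

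Of 16 genes that brake the cell cycle, 15 were tested. In EPR cells Cdkn1a and Cdkn2b were higher and 8 lower than in mock, and in EPRSTOPE cells Cdkn1a and Rb1 were higher and 7 lower. The shares of all genes called higher were 15.2% and 15.6%, so that 2 of 15 is near the background. Those called lower were 12.9% and 12.4%, so that the 8 and 7 lower genes are above it. The median log2 fold change of the 15 genes was -0.62 in EPR and -0.37 in EPRSTOPE cells. The values ranged from -2.38 to 3.71 in EPR and from -3.34 to 3.44 in EPRSTOPE cells. Only the genes called higher are named here, although more genes of the list were lower. Cdkn1a encodes p21, which inhibits cyclin-dependent kinases. It stood at 6.37, 8.02 and 7.49 CPM in mock, 103, 94.3 and 93.2 CPM in EPR and 75.9, 84.7 and 78.8 CPM in EPRSTOPE libraries. The log2 fold changes were 3.71 ± 0.09 and 3.44 ± 0.09, and the difference between EPR and EPRSTOPE cells was 0.28 ± 0.07 (adjusted p = 0.014), under the fold limit. Cdkn2b, the gene of the CDK4 inhibitor p15, was at 33.9 to 38.5 CPM in EPR libraries, against 12.7 to 16.2 CPM in mock and 13.9 to 17.9 CPM in EPRSTOPE libraries.

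The mitosis genes were also split by a match to the CHR letters searched (TTTGAA or TTCGAA) in the promoter window. The 32 genes with a match had medians of -1.06 in EPR and -2.04 in EPRSTOPE cells against mock and 1.03 for EPR over EPRSTOPE. The 9 without one, Birc5, Ccnb1, Cenpe, Mad2l1, Mybl2, Ncaph, Nuf2, Nusap1 and Pttg1, had medians of -0.98, -1.87 and 0.94. These are descriptions without a test. Genes without a match may still hold a CHR in another spelling or outside the window, so the split does not separate genes by the element itself. The genes without a match ranged more widely in EPR cells, from -2.26 (Mybl2) to 0.24 (Pttg1), against -1.69 to -0.30 in those with one.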

How the data were processed

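NMuMG cells carrying empty vector (mock), EPR or EPRSTOPE were sequenced in 3 libraries each. Total RNA was made into stranded libraries, bases were called with bcl2fastq 2.0, and the authors quantified 131100 transcripts of Gencode vM15 (GRCm38) with kallisto 0.43.1. The deposited estimated counts (est_counts, kallisto's expected counts) and TPM values of each transcript were used as deposited, with groups taken from the labels. No columns of unmapped samples were present.

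Estimated counts were summed per gene symbol and rounded to whole numbers. Symbols that reached 1 CPM in 3 or more libraries entered the test in R 4.3.3 with edgeR 4.0.16 (TMM, quasi-likelihood test, 1 factor over all 9 libraries), with Benjamini-Hochberg adjustment over the 15370 symbols. Calls needed an adjusted p below 0.01 and a change past 0.5 on the log2 scale. The scripts were tested on simulated data. CPM are TMM-normalized; TPM were summed per symbol. Gene positions are those of Gencode M21 (GRCm38). The exact permutation test of single genes used log2(CPM + 1) of 3 against 3 libraries. kallisto shares reads among similar transcripts by estimation, and its effective lengths depend on the fragment length. The limits that a count of 0 allows cover counting error only.

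The members and gene lists were chosen with earlier results of these data known. Named members were fixed ones (Cdk1, Ccnb1, Mki67, Top2a, Foxm1, Mybl2), those with the largest and smallest differences in each comparison and those against the main direction. Genes of the list of other mitotic genes were named by the largest changes among those called. In the lists of replication genes and of cell cycle brakes, the genes named were those called higher, whatever the size of the falls. Further members were given by their values as the other genes of each role. The alternatives were DESeq2 1.42.0, limma-voom (limma 3.58.1), median-ratio (RLE) scaling, library totals only, counts scaled from TPM, no filter, a minimum of 10 counts per library, only the 2 groups compared, other thresholds and leaving out each library.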

Additional observations from a re-analysis of the deposited data

Results flagged for a closer look

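The response of the mitosis genes differed between the populations. In 43 of the 50 genes the difference between EPR and EPRSTOPE cells passed the test of the difference itself, with EPR cells higher. Mybl2 went the other way, with a log2 fold change of EPR over EPRSTOPE of -0.76 (adjusted p = 0.0003 in edgeR's quasi-likelihood test). The level of BC030870 also differed between these populations, at 24.9 ± 1.87 CPM in EPR and 4.24 ± 0.477 CPM in EPRSTOPE cells (SD, n = 3), and its part in either result was not tested.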

How the results depend on the processing

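No paired analysis was possible because the library numbers of the 3 groups are all different. With library totals only, the median log2 fold change of the 50 genes was -1.16 in EPR and -2.13 in EPRSTOPE cells against mock, where the medians of all genes were -0.09 and -0.16. For counts of genes at other settings or with a library left out, the shares of all genes called are not given here. A fold limit of 1 on the log2 scale left 29 genes lower in EPR cells than in mock, and between EPR and EPRSTOPE cells 24 higher and 0 lower. At an adjusted p under 0.05 with no fold limit, 2 genes were lower in EPR than in EPRSTOPE cells, Mybl2 and Lmnb1. With counts scaled from TPM, 26 were higher and 0 lower in that comparison, and Smc4 turned to -0.003. At the same setting 44 genes in place of 48 were lower in EPR cells than in mock, as Cdc25c, Espl1, Hmmr and Ncaph lost the call. The cause was not tested. The summed level in EPR cells was 47.1% of mock in CPM in place of 39.3% in TPM. The share of promoters with a CHR was 39.0% with the 250 bases before the start alone, against 19.6% of all genes.

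Leaving out 1 library at a time gave medians from -1.09 to -1.03 in EPR and from -2.04 to -1.98 in EPRSTOPE cells against mock, and from 0.91 to 1.01 between them. In each of these 48 genes were lower in EPR and 50 in EPRSTOPE cells and 0 higher, and in the direct comparison 40 to 43 were higher and 1 lower. Over all alternatives and single genes, 2767 values kept their direction and call, 74 lost the call, 8 gained one and 1 changed direction. The lowest count behind any of these genes was 46.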
